A study of Mus musculus with 36 samples.

Results

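The mitochondrial ribosomal protein genes were followed through the conversion of mouse B cells into macrophages. They were chosen by name, as every gene in the log2 normalised tables whose symbol is Mrpl or Mrps, a number and at most 1 further letter. The rule found 77 genes of the 19067 in those tables. It used no measured value beyond presence in those tables, which hold fewer genes than the 40354 of the count tables. A further symbol of the same form, Mrpl53, is in the count tables only, with counts between 0 and 4 per library and 0 in 15 of the 36 libraries, and was not tested.

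RNA was sequenced from B cells of C57BL/6J mouse bone marrow that had been infected with a retrovirus carrying C/EBPα-ER-hCD4, in which the myeloid transcription factor C/EBPα is fused to the estrogen receptor hormone binding domain and human CD4 marks the infected cells. The virus carried wild-type C/EBPα (WT), or C/EBPα with arginine 35 replaced by alanine (R35A) or by lysine (R35K). Cells were collected at 0, 1, 3, 6, 18 and 120 hours post induction (hpi) with 17β-estradiol, which brings the fusion protein into the nucleus, with 2 libraries per construct and time, 36 in all. The study asked whether this arginine sets the speed of B cell to macrophage transdifferentiation. Every group, 0 hpi included, had been infected, enriched for human CD4 and grown over mitomycin-treated mouse embryo fibroblasts with cytokines, so there is no uninfected or empty-vector group, and the expression of C/EBPα is driven by the virus. The libraries of a group are biological replicates per the methods of the study. How separately their cells were isolated, infected and grown is not stated there. Adjusted p values here are set against the spread between such libraries.

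Mitochondria carry their own ribosome, the mitoribosome, which makes the small set of respiratory chain proteins that mitochondrial DNA encodes. Its RNA comes from that DNA, whereas all of its proteins are encoded in the nucleus, made on cytosolic ribosomes and imported. A large subunit (Mrpl proteins) joins amino acids and a small subunit (Mrps proteins) reads the messenger RNA. Some proteins have counterparts in bacterial ribosomes and others were added in the mitochondrial lineage. The names are older than the structures: the proteins of Mrps30 and Mrps18a sit in the large subunit, and that of Mrps36 is now assigned to the oxoglutarate dehydrogenase complex. On this basis 50 members were placed in the large and 26 in the small subunit.

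All 77 symbols matched a gene of GENCODE vM21, whose build (GRCm38) is mm10, the build that the reads were aligned to. They lay on 17 chromosomes, with 11 of them on chromosome 11. The exons of 3 members overlapped a gene on the same strand and those of 20 members a gene on the opposite strand, among them Mrpl18 with Tcp1, Mrpl36 with Ndufs6, Mrpl44 with Wdfy1, Mrpl49 with Syvn1, and Mrpl46 with another member, Mrps11. Since the strand setting of the counting is not given in the sources used here, the values of these genes may hold reads of the partner.

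Of the 77 members, 68 had a RefSeq promoter (250 bases before to 50 bases after the start, GRCm38.p6), 74 promoters in all. Fixed motifs were searched on both strands, so that a match may be printed as the reverse complement. The NRF1 motif CGCANGCG was in 20 of the 74 (27.0%), against 8.21% of all 32851 promoters and 14.9% of the 14966 promoters of genes tested here. The ETS motif CCGGAAG, which GABP factors can bind, was in 25 (33.8%, against 8.86% and 15.3%), and the YY1 motif AAGATGGCG in 8 (10.8%, against 1.4% and 2.59%). The E-box CACGTG, a motif of MYC-type factors, was in 7 (9.46%, against 7.15% and 9.39%). These 7 belong to 5 genes, since overlapping promoters of Mrpl2 were counted separately. The C/EBP palindrome TTGCGNAA was in 0 of the 74 member promoters, against 0.798% and 1.17%, and the PU.1-type motif GAGGAAGT in 1 (1.35%, against 3.2% and 3.19%). With shares this low, 74 promoters are too few for 0 or 1 match to show a difference. GC content was 58.5% at the median of the members and 60.0% at that of the tested genes. These are matches of letters and not measured binding sites. The 4 promoters shown here belong to members that stand for the time courses described in the text: Mrpl12 and Mrpl18 fell early, Mrpl33 rose and Mrps18b fell late. Capitals mark NRF1 matches in Mrpl12, an ETS match in Mrpl18 and Mrpl33, and an NRF1 match followed by an ETS match in Mrps18b.
Mrpl12, chr11:120484387-120484686, plus strand: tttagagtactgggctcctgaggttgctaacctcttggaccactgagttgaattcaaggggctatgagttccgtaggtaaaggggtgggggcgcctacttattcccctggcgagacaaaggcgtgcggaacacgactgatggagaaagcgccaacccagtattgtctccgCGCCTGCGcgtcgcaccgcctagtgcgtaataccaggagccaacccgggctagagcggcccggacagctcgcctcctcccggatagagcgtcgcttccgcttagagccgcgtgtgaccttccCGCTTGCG
Mrpl18, chr17:12916042-12916341, minus strand: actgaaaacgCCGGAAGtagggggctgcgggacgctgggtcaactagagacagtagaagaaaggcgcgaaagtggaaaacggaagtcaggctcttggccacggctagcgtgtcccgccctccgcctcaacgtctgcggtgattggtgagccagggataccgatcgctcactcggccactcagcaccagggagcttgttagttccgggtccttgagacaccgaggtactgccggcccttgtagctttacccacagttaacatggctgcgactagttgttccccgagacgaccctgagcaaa
Mrpl33, chr5:31613701-31614000, plus strand: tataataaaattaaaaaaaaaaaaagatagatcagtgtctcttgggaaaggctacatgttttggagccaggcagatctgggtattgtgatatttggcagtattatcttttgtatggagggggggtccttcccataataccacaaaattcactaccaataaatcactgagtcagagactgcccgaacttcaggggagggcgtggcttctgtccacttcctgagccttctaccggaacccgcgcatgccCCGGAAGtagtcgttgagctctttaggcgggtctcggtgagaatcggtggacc
Mrps18b, chr17:35916391-35916690, minus strand: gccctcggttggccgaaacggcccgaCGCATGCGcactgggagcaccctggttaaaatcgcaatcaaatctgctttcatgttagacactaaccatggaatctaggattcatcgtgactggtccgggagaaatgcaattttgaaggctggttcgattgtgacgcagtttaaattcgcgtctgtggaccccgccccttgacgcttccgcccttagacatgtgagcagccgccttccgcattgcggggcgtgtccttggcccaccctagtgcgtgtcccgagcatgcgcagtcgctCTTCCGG

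Libraries held 13044456 to 23131776 counts (median 15471229.5). Levels are given as CPM, the gene's share of the library's counts on a fixed scale after TMM, a correction for composition. A gene was called changed where the fold change was at least 1.5 (0.58 on the log2 scale) and the adjusted p at most 0.05, from edgeR's quasi-likelihood test with Benjamini-Hochberg adjustment over all genes tested (16988 for WT and R35A, fitted together, and 16434 for R35K, fitted alone since it has tables of its own). All 8 B cell markers fell and all 8 macrophage markers rose at every time after 0 hpi in every construct. Itgam, an integrin of myeloid cells, went from 1.98 and 1.96 CPM to 464 and 462 CPM in WT between 0 and 120 hpi. The libraries of WT at 6 hpi differed from each other in the mitochondrial leucyl-tRNA synthetase Lars2 (1506 and 72.9 CPM), as did those of R35K at 3 hpi (111 and 1084 CPM). The summed level of the 77 members was 2036 and 2055 CPM in the former and 2091 and 2078 CPM in the latter, and the count of members called there was 12 without the first and 14 without the second library of WT at 6 hpi, and 9 and 11 likewise for R35K at 3 hpi.

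At 0 hpi in WT the members' level per kilobase of exon ranged from 0.651 CPM for Mrpl23 to 46.6 CPM for Mrpl54, with a median of 13.7 CPM per kilobase. Averaged over the 36 libraries, levels not corrected for length ran from 0.705 to 60.0 CPM, and the lowest count of any tested member in any library was 4. Mrps36 (0.249 to 1.37 CPM over the libraries) and Mrpl23 (1.66 to 3.85 CPM) were the least abundant per kilobase. All 77 passed the filter on low counts in both fits. WT and R35A did not differ for any member at 0 hpi by the call used here (0 of 77, and 0% of all genes). In that comparison 1 member passed an unadjusted p of 0.05 together with the fold.

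The summed level of the members was lower at 1 hpi than at 0 hpi in all 3 constructs, with no overlap of the libraries (a sum, with no test of its own). In WT it was 2657 and 2657 CPM at 0 hpi, 2269 and 2286 CPM at 1 hpi, 2151 and 2239 CPM at 3 hpi, 2036 and 2055 CPM at 6 hpi, 2049 and 2019 CPM at 18 hpi, and 2202 and 2155 CPM at 120 hpi. In R35A it went from 2604 and 2636 CPM at 0 hpi to 2063 and 2052 CPM at 1 hpi, below the WT libraries of that time, stayed between 2052 and 2103 CPM to 18 hpi, and was 2364 and 2333 CPM at 120 hpi. In R35K it went from 2598 and 2624 CPM to 2161 and 2129 CPM at 1 hpi and was 2212 and 2042 CPM at 120 hpi. No library taken after 0 hpi reached the level of a 0 hpi library. In bulk RNA, a lower share of the members in each cell and a smaller part of the cells that express them cannot be told apart.

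**Figure D1:**
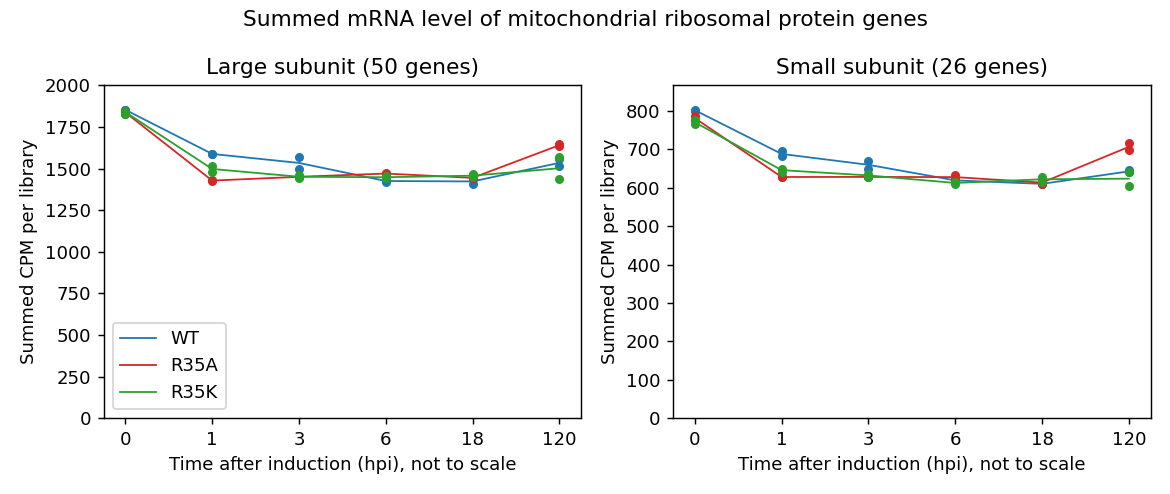
Summed level in CPM of the 50 large subunit genes (left) and the 26 small subunit genes (right) at each time in hpi. Each construct has a colour, points are libraries, lines join the means of 2, and the time axis is not to scale. Both sums are highest at 0 hpi in every construct, the large subunit reaching 1855 CPM and the small subunit 803 CPM in WT.

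For single genes the shift was small and mostly downward. In WT at 1 hpi, 70 of 77 members had a negative log2 fold change, with a median of -0.22 against -0.01 over all genes tested. By adjusted p alone, 47 members (61.0%) fell and 1 rose, whereas 26% of all genes fell and 25.3% rose. The median went on to -0.30, -0.39 and -0.44 at 3, 6 and 18 hpi. At 18 hpi 59 members (76.6%) fell and 2 rose, beside 36% and 35.8% of all genes. With the threshold of 1.5-fold added, the share called lower was nearer to that of all genes. In WT the members called lower at the 5 later times in order numbered 1, 3, 13, 22 and 25. These were 1.3%, 3.9%, 16.9%, 28.6% and 32.5% of the members, against 9.27%, 11.5%, 14.7%, 23.2% and 40.2% of all genes. Scaling by DESeq2 size factors lowered the last counts to 14 at 18 hpi (all genes 3398 of 16988) and 16 at 120 hpi (all genes 6112 of 16988). Without the first WT library of 0 hpi the counts were 2 at 1 hpi and 7 at 3 hpi, and without the second of 1 hpi 2 at 1 hpi. No member was called higher in WT before 120 hpi, although 10.7%, 12%, 15.1% and 23.9% of all genes were at 1, 3, 6 and 18 hpi.

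In R35A the members' median stood at 1 hpi where it remained to 18 hpi. The median log2 fold change was -0.37, -0.33, -0.34 and -0.36 at 1, 3, 6 and 18 hpi. By adjusted p alone 57 members (74.0%) fell at 1 hpi and 53 (68.8%) at 18 hpi, with 2 and 3 members higher. The shares of all genes were 33.9% lower and 32.2% higher at 1 hpi, and 34.9% and 35.2% at 18 hpi. Called lower at 1.5-fold were 14, 16, 13 and 19 members at these times. As shares these were 18%, 20.8%, 16.9% and 24.7% of the members and 18.9%, 19%, 19.2% and 21.6% of all genes. None was called higher before 120 hpi, against 18.3%, 17.9%, 18.5% and 21% of all genes.

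R35K lay alongside, in a fit of its own. The medians were -0.28, -0.30, -0.33 and -0.30 at 1, 3, 6 and 18 hpi. By adjusted p alone 49 members (63.6%) fell and 2 rose at 1 hpi, and 52 (67.5%) fell and 4 rose at 18 hpi, against 34.5% and 28.9%, and 34.3% and 34%, of all genes. With the fold added, 8, 9, 11 and 15 members were called lower. As shares these were 10.4%, 11.7%, 14.3% and 19.5% of the members and 17.4%, 16.8%, 17.8% and 20.5% of all genes. The 1 member called higher was Mrpl23 at 3 hpi, where 15.9% of all genes were; the shares at 1, 6 and 18 hpi were 15.5%, 16.3% and 18.4%. Mrpl23 is low, with 2.26 and 2.39 CPM at 0 hpi and 3.73 and 3.35 CPM at 3 hpi.

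**Figure D2:**
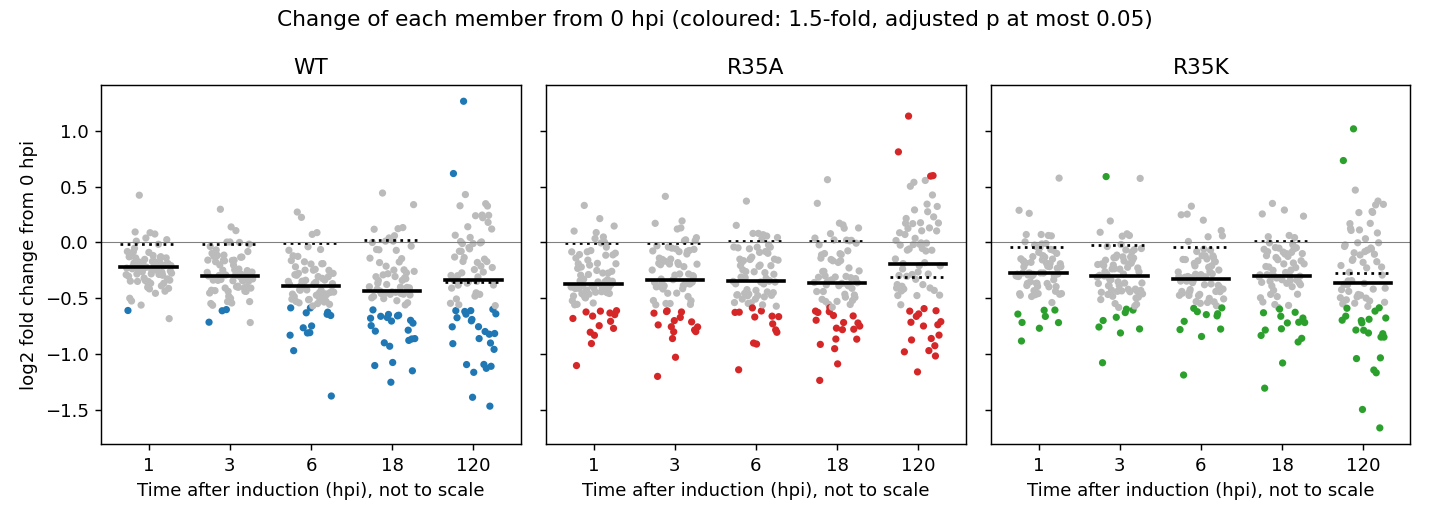
Log2 fold change from 0 hpi of each of the 77 members at each later time, with 1 panel per construct; coloured points were called (at least 1.5-fold and adjusted p at most 0.05), the solid line is the members' median and the dotted line the median of all genes tested. The members' median runs below that of all genes to 18 hpi, reaching -0.44 in WT at 18 hpi, and the points spread apart at 120 hpi.

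Called lower in all 3 constructs, each against its own 0 hpi libraries, were 1, 2, 7, 13 and 15 members at the 5 later times in order. As shares these were 1.3%, 2.6%, 9.09%, 16.9% and 19.5% of the members, and 7.4%, 9.13%, 11.3%, 16.8% and 32.9% of the 16317 genes tested in all. Counted over the 5 later times, 35 members (45.5%; all genes 50.7%) were called lower at 1 or more of them in WT, 28 (36.4%; 47.1%) in R35A and 26 (33.8%; 45.4%) in R35K. In every construct 23 (29.9%; 39.9%) were. No call in either direction was made at any time in any construct for 36 members (46.8%; 15.6%). By subunit, the median log2 fold change in WT at 18 hpi was -0.43 for the 50 large subunit genes and -0.42 for the 26 small subunit genes. It was -0.42 for the 45 members with a bacterial counterpart and -0.45 for the 29 without, the other 3 being unassigned. The groups of members were not tested against each other.

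Mrpl12, whose protein forms the stalk of the large subunit that receives translation factors, was the member called lower at 1 hpi in all 3 constructs. Its gene lies at chr11:120484613-120489065 on the plus strand, and its promoter holds the pair of NRF1 matches shown. In WT the level was 40.1 and 40.2 CPM at 0 hpi, 26.9 and 25.8 CPM at 1 hpi, 23.4 and 25.4 CPM at 3 hpi, 22 and 23.1 CPM at 6 hpi, 24.9 and 23.0 CPM at 18 hpi, and 25.3 and 22.1 CPM at 120 hpi. Both 0 hpi libraries were above every later one. The log2 fold change at 1 hpi was -0.61 (SE 0.078, edgeR adjusted p = 2.6e-09) in WT, -0.68 (SE 0.077, adjusted p = 4.6e-11) in R35A and -0.64 (SE 0.073, adjusted p = 1.8e-09) in R35K. At 120 hpi it stayed called in WT (-0.76) and R35K (-0.70), while R35A had 28.5 and 29.2 CPM (-0.38), under the fold that a call needs.

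Mrpl18 is the mitochondrial relative of the bacterial ribosomal protein that binds the smallest ribosomal RNA. In WT it stood at 36.9 and 40.1 CPM at 0 hpi, 27.0 and 26.5 CPM at 1 hpi, 25 and 27.0 CPM at 3 hpi, 18.8 and 20.4 CPM at 6 hpi, 17.3 and 18.4 CPM at 18 hpi, and 26.5 and 23.7 CPM at 120 hpi. In R35A it was 42.9 and 39.2 CPM at 0 hpi, already 19.1 and 18.9 CPM at 1 hpi, and 15.9 and 18.5 CPM at 18 hpi. The R35A libraries at 1 hpi thus lay near the WT libraries of 6 and 18 hpi. In R35K the level went from 38.7 and 44.2 CPM to 22 and 22.8 CPM at 1 hpi and 16.3 and 17.1 CPM at 18 hpi. The log2 fold change at 18 hpi was -1.10 (SE 0.084, adjusted p = 7.7e-17) in WT, -1.24 (SE 0.081, adjusted p = 2.6e-19) in R35A and -1.31 (SE 0.077, adjusted p = 1.1e-16) in R35K by edgeR. By 120 hpi part of the loss had been regained, with 29.2 and 26.5 CPM in R35A. The gene (chr17:12911349-12916345, minus strand) overlaps the exons of Tcp1 on the other strand.

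Mrpl49, a large subunit protein without a bacterial counterpart, also fell. WT held 51.2 and 55.6 CPM at 0 hpi, 41.3 and 38.8 CPM at 1 hpi, 25.3 and 25.3 CPM at 18 hpi and 24.7 and 22.9 CPM at 120 hpi. R35A held 27.8 and 28.9 CPM at 1 hpi and 32.6 and 32.1 CPM at 120 hpi, with 51.3 and 49.7 CPM at 0 hpi. At 120 hpi its log2 fold change was -1.17 (SE 0.071) in WT and -0.64 (SE 0.065) in R35A, both called. Mrpl46, another large subunit protein, had the lowest log2 fold change of the members in WT at 18 hpi, -1.25 (SE 0.091, edgeR adjusted p = 1.8e-17), from 30.2 and 27.0 CPM to 12.6 and 11.5 CPM.

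Mrpl3, a core protein of the large subunit with a bacterial counterpart, had 70.3 and 73.6 CPM at 0 hpi, 45.6 and 45.3 CPM at 18 hpi and 59.4 and 59.7 CPM at 120 hpi in WT. Its log2 fold change at 18 hpi was -0.66 (SE 0.056) in WT, which was called, and -0.53 (SE 0.054) in R35A and -0.47 (SE 0.052) in R35K, which passed the adjusted p but not the fold.

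Of the small subunit, Mrps35 and Mrps27 fell and were still below their starting level at 120 hpi. Mrps35 had 28.4 and 32.3 CPM in WT at 0 hpi, 16.2 and 17.1 CPM at 18 hpi and 20.1 and 20.0 CPM at 120 hpi. It was called at every time in R35A and R35K and from 6 hpi on in WT. Mrps27, which contains pentatricopeptide repeats of the kind found in RNA-binding proteins of organelles, went from 22 and 22.5 CPM to 12.2 and 13.6 CPM at 18 hpi and was 12.3 and 12.9 CPM at 120 hpi in WT. In R35A its mean was 20.8 CPM at 0 hpi, 13.1 CPM at 18 hpi and 15.5 CPM at 120 hpi. Mrps5, a protein of the mRNA entry side with a bacterial counterpart, was 29.7 and 28.9 CPM at 0 hpi, 17.6 and 17.9 CPM at 18 hpi and 15.3 and 14.8 CPM at 120 hpi in WT, a log2 fold change of -0.96 (SE 0.093) at the last time.

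Mrps36, not a mitoribosomal protein by current assignment, gave the lowest fitted value at 6 hpi in WT, -1.38 (SE 0.435, edgeR adjusted p = 0.0054). The level behind it was 1.2 and 1.16 CPM at 0 hpi against 0.663 and 0.249 CPM at 6 hpi. The other constructs had 0.622 and 0.708 CPM (R35A) and 0.535 and 0.646 CPM (R35K) at 0 hpi, within the range of the later WT libraries.

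At 120 hpi the members no longer moved in 1 direction. By adjusted p alone 47 fell and 10 rose in WT, 40 fell and 15 rose in R35A, and 45 fell and 9 rose in R35K. The shares that fell, 61.0%, 51.9% and 58.4%, stood beside 50.5%, 49.3% and 49% of all genes. The shares that rose, 13.0%, 19.5% and 11.7%, stood beside 30.9%, 32.7% and 34% of all genes. The members' medians were -0.34, -0.19 and -0.37, and those of all genes -0.36, -0.31 and -0.28. Called lower at 1.5-fold were 25 members in WT, 17 in R35A (22.1%; all genes 39%) and 21 in R35K (27.3%; 38.5%), and called higher 2 in WT (2.6%; 23.1%), 4 in R35A (5.19%; 24.2%) and 2 in R35K (2.6%; 25.4%). Scaling by DESeq2 size factors shifted the median of all genes by 0.16, 0.13 and 0.14 at 120 hpi and by 0.12 in WT at 18 hpi. It moved the members' medians at 120 hpi to -0.18, -0.06 and -0.23. The members called higher and lower became 3 and 16 in WT, 7 and 11 in R35A, and 3 and 13 in R35K. Over all genes the calls were then 4414 and 6112 in WT, 4531 and 5986 in R35A, and 4616 and 5691 in R35K.

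Against 18 hpi, the median of the members at 120 hpi was 0.17 in WT, 0.25 in R35A and 0.04 in R35K, and that of all genes -0.09, -0.06 and -0.06. Called higher were 9 members in WT (11.7%; all genes 27.5%), 8 in R35A (10.4%; 24.5%) and 6 in R35K (7.79%; 24.7%). Called lower were 7 (9.09%; 33%), 4 (5.19%; 29.4%) and 6 (7.79%; 28.5%). With DESeq2 size factors the members called higher and lower were 11 and 6 in WT (all genes 4840 and 5445) and 13 and 3 in R35A (4471 and 4703). With all 36 libraries in a joint fit they were 13 and 4 (5251 and 5195) and 17 and 3 (4689 and 4600). In R35A the total of 12 was 19 to 24 when any of the 4 libraries of these times was left out.

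Mrpl33 was above its 0 hpi level by adjusted p at every later time in each construct, and was called higher at 120 hpi. It encodes a small protein of the large subunit that has a bacterial counterpart. In WT the level was 43.8 and 38.9 CPM at 0 hpi, 56.3 and 54.8 CPM at 1 hpi, 49.6 and 52.1 CPM at 3 hpi, 47.4 and 49.3 CPM at 6 hpi, 58.5 and 54.2 CPM at 18 hpi, and 96.5 and 103 CPM at 120 hpi. Every later library was above both 0 hpi libraries. At 120 hpi it reached 92.9 and 101 CPM in R35A and 94.3 and 85.8 CPM in R35K, from 44.0 and 44.3 CPM and from 44.7 and 44.1 CPM. The log2 fold change was 1.27 (SE 0.058, adjusted p = 8.7e-26), 1.13 (SE 0.055, adjusted p = 1.1e-24) and 1.02 (SE 0.056, adjusted p = 5.1e-18) in WT, R35A and R35K by edgeR. The vM21 gene model (chr5:31596935-31664384, plus strand) begins upstream of the RefSeq start and has 13 exon blocks, and which transcripts gave the reads was not analysed here.

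Mrpl14, another large subunit protein with a bacterial counterpart, was called higher at 120 hpi in all 3 constructs. WT had 14.3 and 14.1 CPM at 0 hpi, 14.6 and 13.9 CPM at 18 hpi and 23.1 and 20.5 CPM at 120 hpi, so that the rise fell between the last times. The log2 fold change at 120 hpi was 0.62 (SE 0.10) in WT, 0.81 (SE 0.096) in R35A and 0.74 (SE 0.10) in R35K. Mrps25, of the small subunit, was called higher in R35A, from 21.7 and 24.1 CPM to 35.4 and 34.3 CPM (0.60, SE 0.080). In WT it had 23.2 and 25.2 CPM at 0 hpi, 17.5 and 19.1 CPM at 18 hpi and 28.6 and 26.3 CPM at 120 hpi. The fourth member called higher in R35A was Mrps21 (0.60), named here after its values were seen.

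Several members returned to or passed their starting level. Mrpl36, a large subunit protein with a bacterial counterpart, had 26.6 and 26.7 CPM at 0 hpi, 13.5 and 14.9 CPM at 18 hpi and 35.2 and 36.6 CPM at 120 hpi in WT. R35A followed with 25.4 and 28.1 CPM, 16.9 and 17.9 CPM, and 37.3 and 38.8 CPM at the same times. From 18 to 120 hpi the log2 fold change was 1.33 (SE 0.084), 1.13 (SE 0.077) and 0.77 (SE 0.081) in WT, R35A and R35K, called in each. Mrpl42 did likewise, with 34.2 and 35 CPM, 22.1 and 22.1 CPM, and 34.9 and 31.5 CPM in WT. Mrps16, the small subunit protein with a bacterial counterpart of the same number, had 26.0 and 22.7 CPM, 17.7 and 17.8 CPM, and 29.2 and 28.6 CPM in WT.

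In WT, other members stood at or above their starting level at 18 hpi and had fallen by 120 hpi. Mrpl38, which resembles phosphatidylethanolamine-binding proteins, was 36 and 39.2 CPM at 0 hpi, 38.8 and 37.0 CPM at 18 hpi and 18.4 and 16.7 CPM at 120 hpi in WT. R35A and R35K had 21.4 and 19.1 CPM and 17.9 and 18.3 CPM at 120 hpi. The log2 fold change from 18 to 120 hpi was -1.11 (SE 0.086) in WT, -0.95 (SE 0.080) in R35A and -0.997 (SE 0.077) in R35K. Mrps18b, of the small subunit (chr17:35910379-35916389, minus strand), was 19.2 and 23.7 CPM at 0 hpi, 24.7 and 22.4 CPM at 18 hpi and 9.62 and 10.5 CPM at 120 hpi in WT, and its log2 fold change between the last times was -1.23 (SE 0.11), -0.90 (SE 0.11) and -1.13 (SE 0.11). Mrps10 (25.5 to 29.5 CPM in the WT libraries to 18 hpi, 14.9 and 13.9 CPM at 120 hpi) had the same form. Mrps6 was 19.9 and 18.9 CPM at 0 hpi, 24.4 and 24.6 CPM at 18 hpi and 10.2 and 11.8 CPM at 120 hpi in WT. Against 0 hpi, Mrps6 was called lower in WT but at no time in R35A or R35K. Its exons overlap those of Slc5a3 on the same strand.

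Mrps28 and Mrpl47 fell both early and late. Mrps28, of the small subunit, had 26.3 and 23.8 CPM at 0 hpi, 13.5 and 13.7 CPM at 18 hpi and 9.29 and 8.78 CPM at 120 hpi in WT, the lowest log2 fold change of the members at that time (-1.47, SE 0.11, edgeR adjusted p = 1.4e-17). In R35K it was 8.13 and 6.70 CPM (-1.66, SE 0.10), and in R35A 13.0 and 12.4 CPM (-0.93, SE 0.096). Mrpl47 went from 19.5 and 23.4 CPM to 8.54 and 7.79 CPM in WT at 120 hpi (-1.39, SE 0.11). Mrps30 and Mrps22 were called lower at 120 hpi in every construct, with log2 fold changes of -0.90 and -1.13 in WT, -1.02 and -0.86 in R35A, and -1.04 and -1.17 in R35K. Mrpl43, named here after its values were seen, stayed between 40.2 and 49.6 CPM in all 36 libraries and was called at no time.

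**Figure D3:**
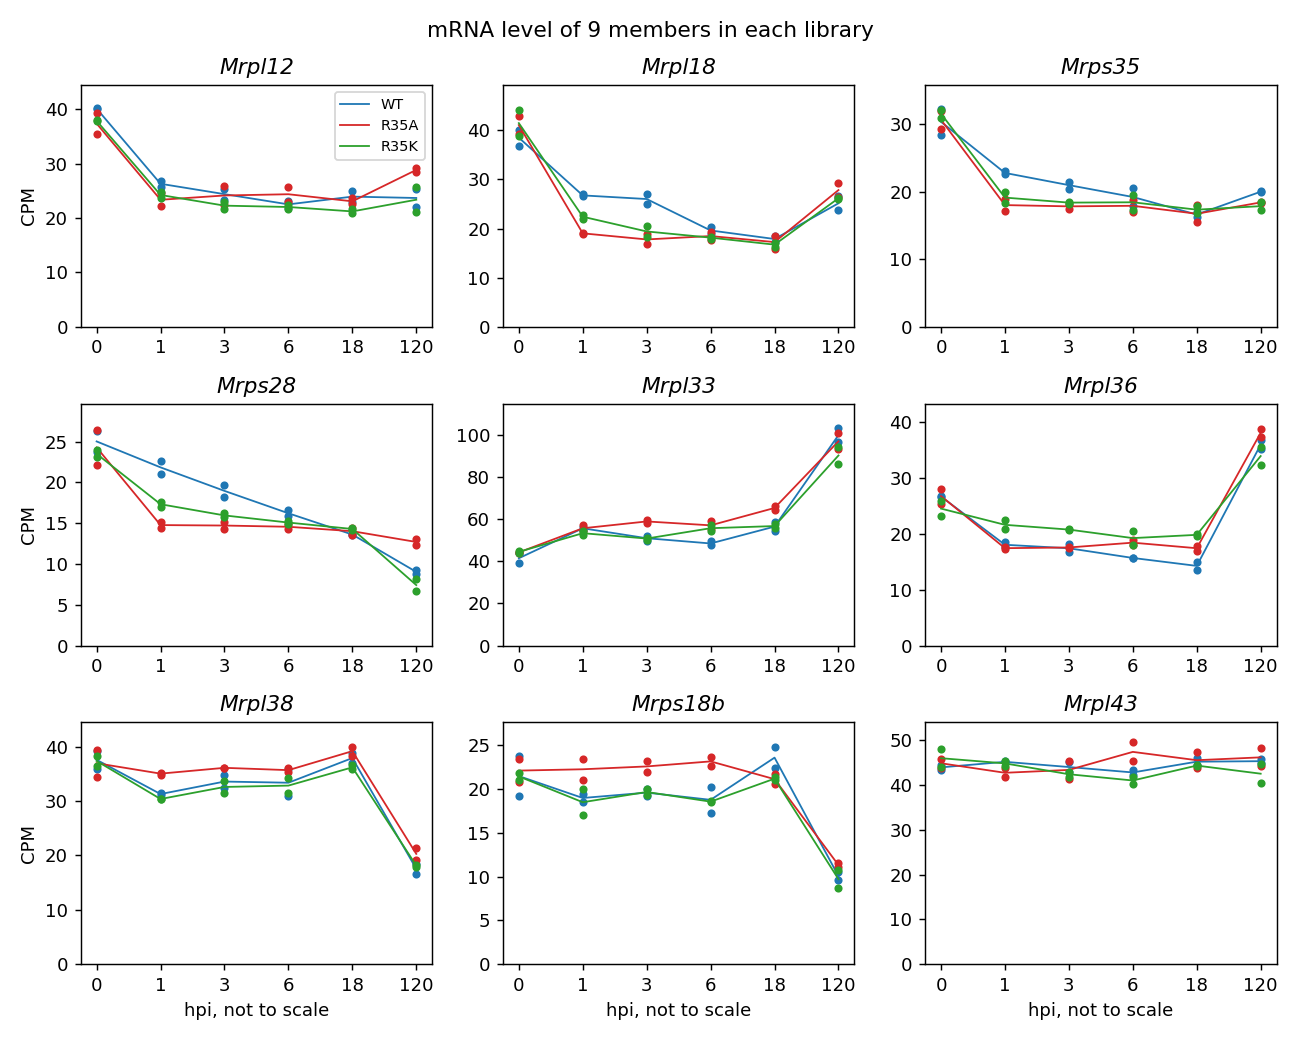
Level in CPM of 9 members at each time in hpi, 1 panel per gene, with a colour for each construct; points are libraries, lines join the means of 2, and the time axis is not to scale. Mrpl12, Mrpl18 and Mrps35 fall early, Mrpl33 rises to 96.5 and 103 CPM in WT, Mrpl36 dips and recovers, Mrpl38 and Mrps18b fall after 18 hpi, and Mrpl43 stays between 40.2 and 49.6 CPM.

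Over all members, the highest of the 6 group means in WT was at 0 hpi for 52 of 77 and at 120 hpi for 15. In R35A these counts were 46 and 24, and in R35K 59 and 14. The lowest mean in WT was at 6 hpi for 22, at 18 hpi for 24 and at 120 hpi for 27. The profile of a member over the 18 groups, as means of the deposited log2 values, was set beside the median profile of the other members. That median was taken over changes from each construct's own 0 hpi mean, so it is 0 in the 0 hpi groups. The member's own profile kept differences between constructs at 0 hpi. Correlation was above 0.8 for 13 members, above 0.5 for 43 and below 0 for 11. The profiles most like the median were those of Mrpl40 (0.94), Mrps11 (0.93) and Mrpl12 (0.93), and those least like it Mrps10 (-0.30), Mrpl33 (-0.26) and Mrpl23 (-0.16). Over the 2926 pairs of members the correlation had a median of 0.34, ranged from -0.96 to 0.98, and was above 0 in 71.4%. In WT, Mrpl40 went from 31.9 and 32.5 CPM at 0 hpi to 21.6 and 19.0 CPM at 18 hpi and 25 and 25.5 CPM at 120 hpi, and Mrps11 from 22.7 and 23.7 CPM to 15.8 and 13.7 CPM and 16.9 and 16.7 CPM. All 18 points of a profile share their libraries, depth and scaling with every other profile, so these are descriptions with no test.

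**Figure D4:**
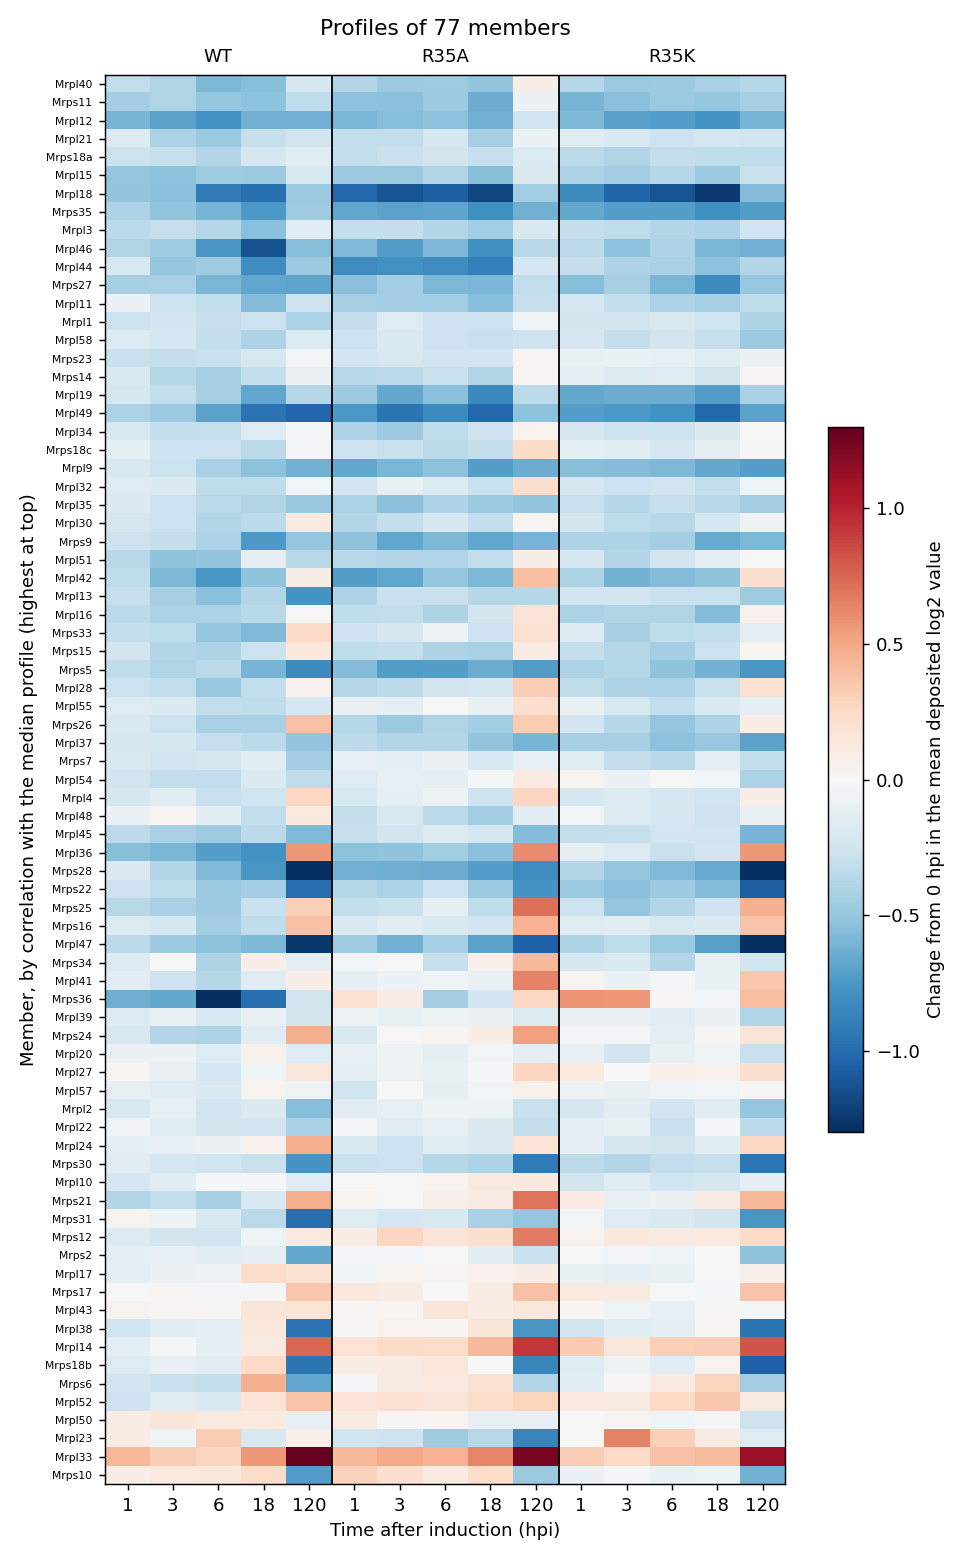
Change from 0 hpi in the mean deposited log2 value of the 77 members (rows) at 5 times in 3 constructs (columns). Colour limits are at 1.3 in both directions. Rows are ordered by the correlation of their log2 values with the median change of the other members from 0 hpi. The upper rows, led by Mrpl40 (0.94), are mostly lower than at 0 hpi, and the last rows hold Mrpl23, Mrpl33 and Mrps10, with correlations below 0.

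The changes in R35A and WT were compared by the difference of the 2 changes from 0 hpi in the joint fit. At 1 hpi the difference was negative, a stronger fall in R35A, for 61 of 77 members, with a median of -0.11 against -0.02 for all genes. By adjusted p alone 14 members were lower (18%; all genes 19.5%) and 2 higher (2.6%; 14.5%). At 3 hpi the median was -0.04, with 9 members lower (11.7%; 17.6%) and 4 higher (5.19%; 13.4%). At 6 hpi it was 0.09, with 4 lower (5.19%; 14.3%) and 7 higher (9.09%; 11.6%). At 18 hpi it was 0.03, with 0 lower (9.74%) and 2 higher (2.6%; 11.9%). At 120 hpi the difference was positive for 59 members, with a median of 0.14 against 0.08 for all genes, and 20 were higher (26.0%; 20.2%) and 2 lower (2.6%; 13%). With DESeq2 size factors the difference at 1 hpi was negative for 47 members, with a median of -0.05 (all genes 0.04) and 9 lower by adjusted p alone, and with all 36 libraries in a joint fit for 53, with a median of -0.07 and 11 lower. With DESeq2 size factors the median at 3 hpi was 0.01 and that at 18 hpi -0.02, so these directions depend on the scaling, and no member was called higher at 120 hpi.

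At 1 hpi the share of members lower in R35A was thus close to that of all genes. With the 1.5-fold threshold 1, 1, 1, 0 and 2 members passed in either direction at the 5 later times in order. The shares of all genes were 14%, 13%, 10.3%, 8.36% and 14.5%. At 1 hpi it was Mrpl44 (chr1:79776018-79781445, plus strand), a large subunit protein with a domain related to ribonuclease III. WT had 20.1 and 23.4 CPM at 0 hpi and 19.4 and 18.0 CPM at 1 hpi, and R35A 23.2 and 22.4 CPM and then 12.4 and 11.9 CPM. The difference of the log2 changes was -0.69 (SE 0.13, edgeR adjusted p = 2.3e-05). Without the first WT library of 0 hpi it was -0.57, under the fold that a call needs. By 18 hpi the libraries overlapped, with 12.1 and 10.8 CPM in WT and 11.5 and 12.0 CPM in R35A, while R35K had 15 and 13.3 CPM. At 3 hpi it was Mrpl18, at -0.64 (SE 0.11, edgeR adjusted p = 1.1e-05), with 25 and 27.0 CPM in WT and 16.8 and 18.8 CPM in R35A. It was -0.573 without the first WT library of 0 hpi, -0.584 without the second WT library of 3 hpi and -0.558 without the first R35A library of 3 hpi, and lost its call in each case.

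At 120 hpi Mrpl41 (chr2:24974117-24975098, minus strand), a large subunit protein without a bacterial counterpart, was higher in R35A. WT had 19.3 and 17.3 CPM at 0 hpi and 16.6 and 19.0 CPM at 120 hpi, and R35A 18 and 17.7 CPM and then 26.3 and 25.8 CPM. The difference of the log2 changes was 0.59 (SE 0.12, edgeR adjusted p = 0.00016). Leaving out each library in turn gave 0.48 to 0.68, and 4 of the 8 fits lost the call. R35K, side by side, went from 18.8 and 19.0 CPM to 23.5 and 22 CPM. Mrpl23 differed the other way at 120 hpi, at -0.90 (SE 0.34, adjusted p = 0.033), and at 6 hpi, at -0.78 (SE 0.29, adjusted p = 0.039), by edgeR. Of the 8 fits with a library left out, 5 lost the call at each time. Its levels at 120 hpi were 2.82 and 3.23 CPM in WT and 1.68 and 1.80 CPM in R35A. Among members past the adjusted p alone at 120 hpi, Mrps12, the small subunit protein of the decoding centre, had 19.6 and 16.7 CPM in WT and 27.3 and 24.1 CPM in R35A (difference 0.56, SE 0.14, edgeR adjusted p = 0.00091).

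**Figure D5:**
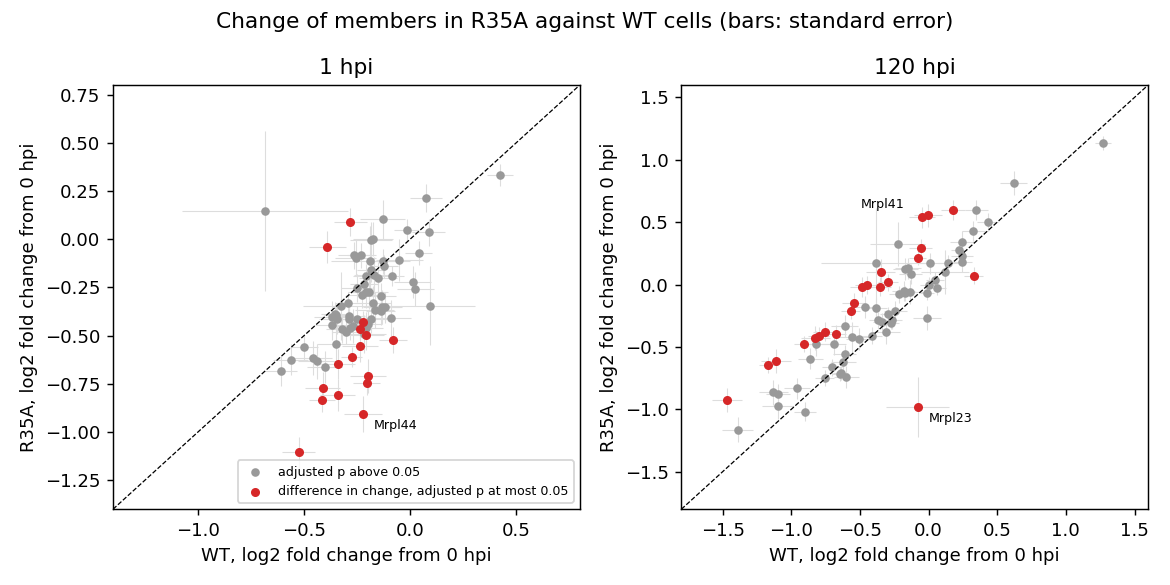
Log2 fold change from 0 hpi of each member in WT (x axis) and R35A (y axis) at 1 hpi (left) and 120 hpi (right), with standard errors as bars and the diagonal as a line of equal change; red points have an adjusted p of at most 0.05 for the difference. At 1 hpi 61 of 77 members lie below the diagonal (47 with DESeq2 size factors), with Mrpl44 labelled, and at 120 hpi 59 lie above it, with Mrpl41 and Mrpl23 labelled.

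Among lists of genes that act with the mitoribosome, other mitoribosomal protein genes, tRNA synthetases and translation factors mostly fell at 1 hpi. The lists were set by function, with earlier results of these data known. The shares of all genes that fell by adjusted p alone, beside which their counts stand, were 26%, 33.9% and 34.5% at 1 hpi, 36%, 34.9% and 34.3% at 18 hpi, and 50.5%, 49.3% and 49% at 120 hpi in WT, R35A and R35K. Of 5 mitoribosomal protein genes under other symbols, 4 fell by adjusted p alone at 1 hpi in WT, R35A and R35K. Among these, Dap3, a GTP-binding protein of the small subunit, went from 71.3 and 71.8 CPM to 48.5 and 50.5 CPM in WT at 120 hpi (log2 fold change -0.53, SE 0.055), under the fold that a call needs. Ptcd3, a pentatricopeptide protein of the small subunit, went from 69.5 and 66.0 CPM at 0 hpi to 55.8 and 53.4 CPM at 18 hpi and 24.2 and 26.7 CPM at 120 hpi in WT (-1.41, SE 0.063, edgeR adjusted p = 3.2e-26).

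Of 17 mitochondrial aminoacyl-tRNA synthetases, which load tRNAs, 17 fell by adjusted p alone in WT at 18 hpi, with a median of -0.60. Called at 1.5-fold were 9, beside 23.2% of all genes called lower. At 1 hpi 10 fell in WT, 15 in R35A and 15 in R35K. Of 12 translation factors, 8 fell at 1 hpi in WT, 10 in R35A and 8 in R35K, with medians of -0.32, -0.46 and -0.31. They include Gfm1, an elongation factor, which went from 71.2 and 71.6 CPM to 51.8 and 53 CPM in WT at 18 hpi (-0.45, SE 0.051), and Tufm, the factor that delivers tRNAs, whose WT values of 10.3 and 8.56 CPM at 0 hpi and 6.47 and 5.20 CPM at 120 hpi gave a called change of -0.69 (SE 0.16). Of 25 assembly factors 16 fell at 18 hpi in each construct. Noa1, a GTPase needed for the small subunit, had 27.4 and 26.9 CPM at 0 hpi and 17.1 and 15.5 CPM at 18 hpi in WT (-0.74, SE 0.087).

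Of 12 genes of mitochondrial transcription and RNA handling, 10 fell by adjusted p alone at 120 hpi in WT, 8 in R35A and 9 in R35K, with medians of -0.72, -0.47 and -0.68. Tfam, which packs mitochondrial DNA and starts its transcription, was 54.8 and 58.4 CPM at 0 hpi and 24.8 and 26.1 CPM at 120 hpi in WT (-1.15, SE 0.073). Polrmt, the mitochondrial RNA polymerase, was 31.0 and 33.2 CPM and then 20.3 and 21.3 CPM (-0.63, SE 0.088). Of 7 mitochondrially encoded mRNAs tested, 1 fell and 1 rose at 1 hpi in WT and 5 fell in R35A, with none called at 1.5-fold. Poly(A) selection captures these RNAs unevenly.

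The regulators known for acting on such genes moved in several directions. Nrf1, a factor that binds the NRF1 motif, was 69.3 and 67.6 CPM in WT at 0 hpi, 52.2 and 52.4 CPM at 1 hpi, 30.4 and 26.3 CPM at 18 hpi and 41.2 and 40.9 CPM at 120 hpi. In R35A it was already 36.5 and 36.1 CPM at 1 hpi. The log2 fold change at 1 hpi was -0.39 (SE 0.060) in WT, below the fold for a call, and -0.88 (SE 0.061, edgeR adjusted p = 3.2e-18) in R35A. Gabpa, the DNA-binding part of GABP, fell by 0.41 (SE 0.045) on the log2 scale in WT at 18 hpi. Ppargc1b, a coactivator of such factors, had 4.31 and 4.42 CPM at 0 hpi, 1.24 and 1.3 CPM at 18 hpi and 8.46 and 7.08 CPM at 120 hpi in WT. Myc, a growth factor-responsive regulator of ribosome genes, rose from 34.8 and 34.7 CPM to 129 and 132 CPM in WT at 120 hpi (1.91, SE 0.054), while R35A had 65.3 and 60.6 CPM. Whether any of these acts on the members was not tested.

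The 80 cytosolic ribosomal protein genes and the 78 tested genes of oxidative phosphorylation, the process the mitoribosome serves, give a measure of what is shared. In WT the cytosolic set had medians of -0.30, -0.41, -0.62 and -0.55 at 1, 3, 6 and 18 hpi, and the oxidative phosphorylation set -0.12, -0.18, -0.34 and -0.26, so that the members (-0.22, -0.30, -0.39 and -0.44) lay between them. At 120 hpi the cytosolic set stood at -0.15 in WT, -0.53 in R35A and -0.35 in R35K, and the members at -0.34, -0.19 and -0.37. In the difference between R35A and WT at 120 hpi, 13% of all genes were lower and 20.2% higher by adjusted p alone. Of the 80 cytosolic genes 47 were lower and 2 higher, and of the 77 members 2 were lower (2.6%) and 20 higher (26.0%). For oxidative phosphorylation 6 were lower and 32 higher. Whether the sets differ from each other was not tested, and paralogous copies make the counts of cytosolic ribosomal protein genes uncertain.

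Other contents of the libraries moved with these changes. The summed level of 10 feeder fibroblast markers in WT was 9687 and 9795 CPM at 0 hpi, 16813 and 16802 CPM at 1 hpi and 25507 and 25073 CPM at 18 hpi. In R35A it was 10207 and 10340 CPM at 0 hpi and 19465 and 19470 CPM at 1 hpi, and in R35K 9871 and 10257 CPM and then 13096 and 12736 CPM. All 10 were higher by adjusted p alone at 1 hpi in WT and R35A, and 9 in R35K. At 120 hpi 8 of the 10 had fallen in WT, with Lum at 0 in all 120 hpi libraries, and the sum of 25492 and 25709 CPM was carried by Fn1 and Thbs1, which macrophages can also express. The summed level of 12 cell cycle genes went down in the same period, from 4802 and 4870 CPM at 0 hpi to 2869 and 2867 CPM at 1 hpi and 594 and 590 CPM at 18 hpi in WT. In R35A it went from 4559 and 4517 CPM to 1006 and 996 CPM at 1 hpi, and in R35K from 4726 and 4771 CPM to 1546 and 1525 CPM. The part of feeder RNA, and of the exit from division, in the changes of the members was not tested.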

How the data were processed

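RNA of 36 libraries was sequenced from poly(A)-selected, strand-marked libraries. The authors aligned reads to mm10 with STAR 2.5.0a, counted reads per gene, and deposited raw counts for 40354 genes in separate tables for WT with R35A and for R35K. The deposited log2 values (19067 genes) were made by the authors with DESeq2 1.14.1 and equalled log2 of the count over a size factor plus 1 for 100% of values (tolerance 1e-06). The annotation release and the strand setting of the counting are not given in the sources used here.

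Counts were tested with edgeR 4.0.16 in R 4.3.3 (TMM, filterByExpr, quasi-likelihood), over 12 groups of WT and R35A (16988 genes) and 6 groups of R35K (16434 genes). A call needed a fold of 1.5 and a p, adjusted over all genes after Benjamini and Hochberg, no higher than 0.05. The difference between constructs was the interaction of construct and time. No test crossed the tables. Comparisons of 1 construct share their 0 hpi libraries. Depth was 13044456 to 23131776 counts and the common biological coefficient of variation 3.17% and 3.49%. For well-counted genes, the squared difference between replicates was divided by that expected from counting alone. Its average per gene was 1.121 in the group with the lowest value and 16.65 in that with the highest. The steps were tested on simulated data.

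Members and lists were chosen with earlier results of these data known. Named members were the 3 highest and 3 lowest called members per comparison whose replicates did not overlap, the 3 most and 3 least like the median profile, 10 fixed members, and those near 0. The values of a B cell marker are not reported here. Alternatives were DESeq2 1.42.0 (test and size factors), no filter on low counts, no fold threshold, unadjusted p, all 36 libraries in a joint fit, a replicate block, and leaving out each library. Gene positions came from GENCODE vM21 and promoters from RefSeq.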

Additional observations from a re-analysis of the deposited data

Results flagged for a closer look

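The change from 0 hpi differed between R35A and WT, by the test of the difference itself, for 4 members. Mrpl44 fell further in R35A at 1 hpi, by -0.68509 on the log2 scale (SE 0.1295, edgeR adjusted p = 2.278e-05), and Mrpl18 at 3 hpi, by -0.63837 (SE 0.1146, edgeR adjusted p = 1.051e-05). In both cases the 2 R35A libraries lay below the 2 WT libraries at that time. Both lost the call without the first WT library of 0 hpi (-0.57 and -0.573), and Mrpl18 also without either of 2 libraries of 3 hpi.

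Mrpl41 was higher in R35A at 120 hpi, by 0.58551 (SE 0.1247, edgeR adjusted p = 0.000157). It lies close to the fold threshold of 0.58 and was under it with DESeq2 size factors (0.56).

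Mrpl23 was lower in R35A at 6 hpi, by -0.78133 (SE 0.2898, edgeR adjusted p = 0.03923), and at 120 hpi, by -0.90282 (SE 0.3375, edgeR adjusted p = 0.03301). Its level lay between 1.66 and 3.85 CPM in all libraries, and by the DESeq2 Wald test the adjusted p was 0.16 and 0.0926.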

How the results depend on the processing

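Calls of members depended most on the fold threshold. By adjusted p alone, the members called in either direction at the 5 later times in order, and at 120 against 18 hpi, were 48, 53, 66, 61, 57 and 55 in WT, 59, 52, 54, 56, 55 and 54 in R35A, and 51, 56, 62, 56, 54 and 45 in R35K, and for the difference between R35A and WT they were 16, 13, 11, 2 and 22. By the same rule 26% of all genes fell and 25.3% rose in WT at 1 hpi, and 50.5% and 30.9% at 120 hpi. For changes from 0 hpi at 3 and 6 hpi, and for 120 against 18 hpi, no such share is given here. Those counts were therefore not set against all genes. With the DESeq2 Wald test the counts were 8 in WT at 6 hpi, 14 in WT at 18 hpi, 9 in R35A at 1 hpi, 4, 6 and 5 in R35K at 1, 3 and 6 hpi, and 0 for the difference at 6 and 120 hpi. The Wald test's counts were not set against those of all genes. With DESeq2 size factors the members called were 14 in WT at 18 hpi, 9 in R35A at 1 hpi, 5 and 5 in R35K at 1 and 6 hpi, and 1 for the difference at 120 hpi. The calls higher and lower over all genes were then 4708 and 3398 in WT and 3554 and 2847 in R35A. They were 2934 and 2444, and 3068 and 2523, in R35K, and 1604 and 836 for the difference. With all 36 libraries in a joint fit the members called were 20 in R35A at 120 against 18 hpi, 6 in R35K at 6 hpi and 1 for the difference at 120 hpi. The calls higher and lower over all genes were then 4689 and 4600, 3039 and 2690, and 1664 and 792. Without a filter on low counts the difference at 6 hpi had 0, and at an unadjusted p 1 member was called between R35A and WT at 0 hpi. Each other comparison stayed within 1.5 times its count under these settings. The cause was not tested.

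Leaving out each library in turn gave 1 to 2 members in WT at 1 hpi (2 without the first 0 hpi or the second 1 hpi library) and 2 to 7 at 3 hpi (7 without the first 0 hpi library). R35A at 120 against 18 hpi had 12 with all libraries and 19 to 24 when a library of either time was left out (24 without the second at 120 hpi). The difference between R35A and WT ranged from 0 to 3 at 1 hpi (0 without the first WT and 3 without the second R35A library of 0 hpi), from 0 to 2 at 3 hpi (0 without the first WT library of 0 hpi, the second WT or the first R35A library of 3 hpi), from 0 to 1 at 6 hpi (0 without any of 5 libraries) and from 0 to 5 at 120 hpi (0 without the first R35A and 5 without the first WT library of 120 hpi). A group left with 1 library is assumed to vary like the others.

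A replicate block changed none of the 24 counts (13 in WT at 6 hpi with the block as without). The numbers do not pair the libraries: over 153 pairs of groups the differences between replicates correlated at a median of -0.0091, above 0.1 in 8 pairs. Among 74 results of named members none reversed. With size factors 2 lost their call and with the Wald test 7, among them Mrps36 in WT at 6 hpi (adjusted p = 0.0609) and 18 hpi (0.133). Mrps36 and Mrpl23 had the lowest counts, where depth limits precision most.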
